A study of Homo sapiens with 6 samples.

Results

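The 10 genes described here encode the receptors, adaptors, initiator caspase and inhibitor of the extrinsic apoptosis pathway: the death receptors FAS, TNFRSF10A, TNFRSF10B and TNFRSF1A, the decoy receptors TNFRSF10C and TNFRSF10D, the adaptors FADD and TRADD, the initiator caspase CASP8 and its inhibitor CFLAR. They were chosen by name, as 10 of the 21447 genes to which transcripts of the libraries were assigned. RNA came from unsynchronized U-2 OS cells, an osteosarcoma line, either left untreated or harvested 24 h after 4 Gy of ionizing radiation (IR), with 3 libraries in each group. The cells were not otherwise modified, per the sample labels, and the study describes the libraries of a group as independent samples without saying whether each came from its own culture, so that P values measure the spread between these samples. In bulk RNA, a larger share of cells with a transcript and more of it in each cell cannot be told apart.

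Death receptors are membrane proteins of the tumour necrosis factor (TNF) receptor family with a cytoplasmic death domain. When FAS binds FAS ligand, or TNFRSF10A or TNFRSF10B (also called DR4 and DR5) binds TRAIL, the adaptor FADD joins the receptor and brings in procaspase-8, whose activation starts a caspase cascade; CFLAR (c-FLIP) resembles caspase-8 but lacks its protease activity and competes with it. TNFRSF1A, the main TNF receptor, recruits TRADD and signals first to NF-κB. FAS and TNFRSF10B are known targets of p53, which U-2 OS cells carry in wild-type form.

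Estimated counts totalled between 18573309 and 22953834 in 5 libraries and 45308792 in IR replicate 3, the most deeply sequenced. The p53 targets CDKN1A and MDM2 were higher after IR by 1.53 and 0.60 on the log2 scale, in the direction of the labels. The study had already listed CDKN1A, FAS, GADD45A and MDM2 among the genes most strongly induced in this bulk experiment. Of 9 markers of bone and mesenchymal cells, COL1A1, SPARC, VIM, SPP1 and RUNX2 exceeded 10 CPM in each library. COL1A2 was at 0.98 to 2.14 CPM and ALPL at 1.70 to 4.95 CPM, and the late osteoblast genes BGLAP and IBSP had at most 11 counts. Of 4 blood cell genes, CD3E and HBB had no counts, PTPRC was at 0.75 to 1.76 CPM and the macrophage gene CD68 at 6.60 to 16.7 CPM. Among epithelial genes KRT18 was between 146 and 228 CPM, EPCAM between 8.55 and 10.6, CLDN4 between 6.21 and 9.17 and CDH1 between 1.87 and 3.43 CPM. Of the endothelial genes, VWF was at 2.71 to 4.47 CPM, PECAM1 had 2 to 27 counts and CDH5 had 0 to 7 counts. CD68 and KRT18 were higher after IR, by 0.67 and 0.42 on the log2 scale (adjusted P = 0.0189 and 0.00657 by edgeR). So were CDH1 and ALPL, by 0.61 and 1.09 (adjusted P = 0.0465 and 0.00716 by edgeR). RUNX2 was lower, with a log2 fold change of -0.36 (adjusted P = 0.0250 by edgeR). The part of other cell types in the results below was not tested. CPM, the normalized count relative to library size, used sizes scaled by the TMM method of edgeR.

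Of the 10 genes, 8 had enough counts to be tested, and 3 were higher after IR: FAS, TNFRSF10B and TRADD. None was lower. Genes were called by edgeR (quasi-likelihood test, P values adjusted by Benjamini–Hochberg over 14323 genes, threshold 0.05), which placed 15.5% of all tested genes among the higher and 14.5% among the lower ones. The range of the IR libraries was clear of the untreated range in 3 of the 8 genes and in 47.1% of all tested genes. The median log2 fold change was 0.20 for the 8 genes and 0.01 for all tested genes. The adaptor FADD, the caspase CASP8, its inhibitor CFLAR, the TNF receptor TNFRSF1A and the decoy TNFRSF10C did not pass the threshold. With 3 libraries against 3, an exact two-sided permutation test of a single gene cannot go below 0.1, which FAS, TNFRSF10B and TRADD reached.

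**Figure D1:**
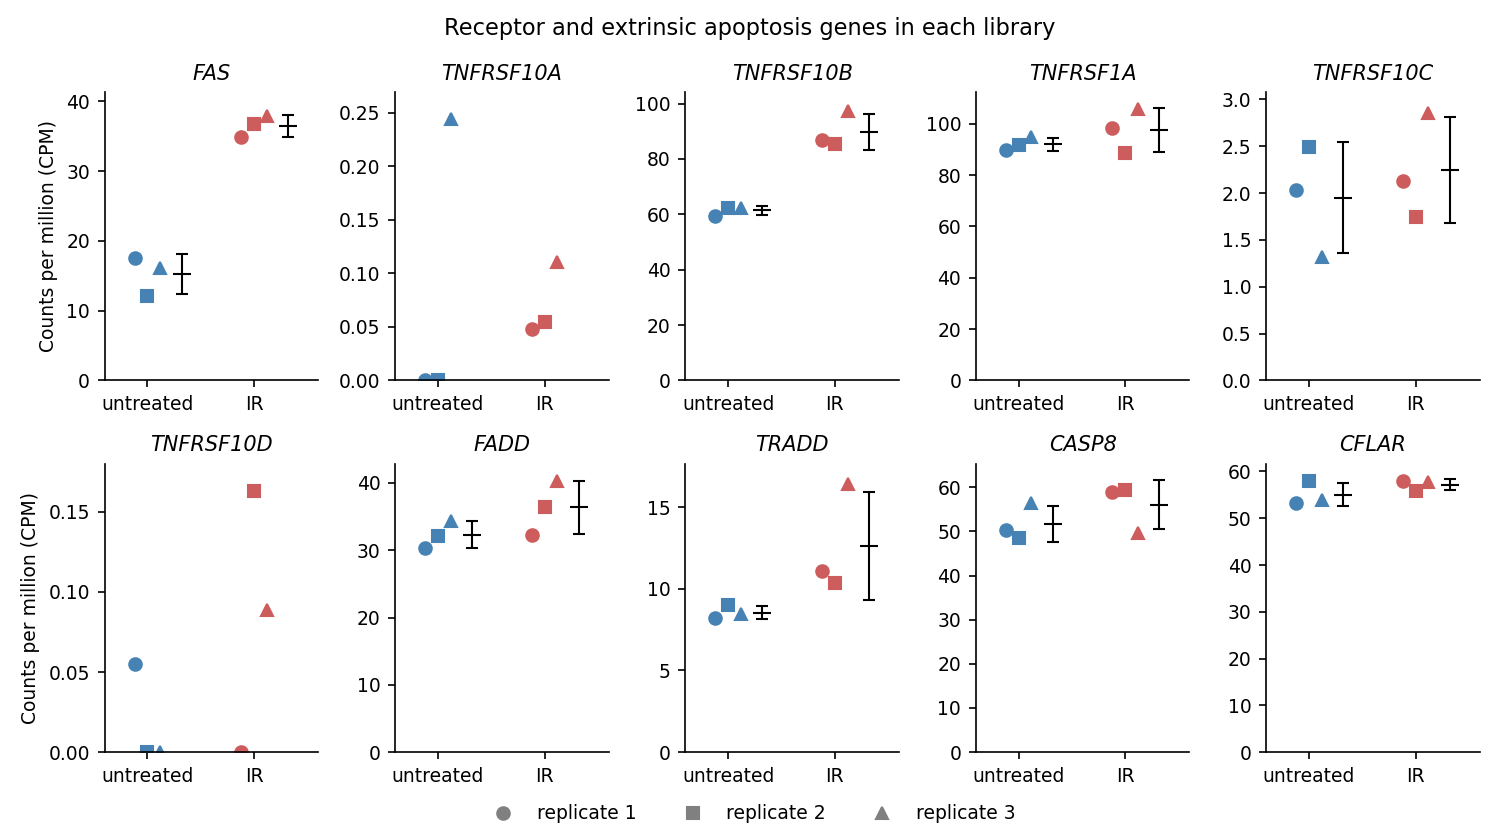
CPM of the 10 genes (vertical axes, each from 0) in untreated (blue) and IR (red) libraries, with replicates as circles, squares and triangles, and the mean ± SD (n = 3) beside the points of the 8 tested genes. FAS, TNFRSF10B and TRADD do not overlap between groups, and TNFRSF10A and TNFRSF10D stay below 0.25 CPM.

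FAS, the receptor of FAS ligand, spans 88953813 to 89029605 on the plus strand of chromosome 10 (GRCh38). Untreated cells gave 17.5, 12.1 and 16.1 CPM and irradiated cells 34.8, 36.8 and 37.9 CPM, with libraries here and below in the order of replicates 1 to 3. Every IR library was above every untreated library. The mean rose from 15.2 ± 2.81 CPM (SD, n = 3) to 36.5 ± 1.57 CPM (SD, n = 3). The log2 fold change was 1.27 with a standard error of 0.12 (95% confidence interval 1.00 to 1.54, adjusted P = 2.53e-04 by edgeR), and FAS ranked 71 of the 2227 higher genes by fold change. FAS had the largest change of the 8 tested genes.

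FAS transcripts differ in exon 6, which encodes the membrane-spanning segment; without it a soluble receptor is made. In FAS-221, the canonical transcript of 9 exons, exon 6 has 63 bases (21 codons) at chr10:89010753-89010815, plus strand. The exon is shown because the transcript classes below are defined by it, with the exon in capitals and 20 bases of the flanking introns in lower case (GRCh38).
FAS exon 6: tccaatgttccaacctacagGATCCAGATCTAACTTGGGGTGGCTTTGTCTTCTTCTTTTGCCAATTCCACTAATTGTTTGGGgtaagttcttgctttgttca

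Of the 20 FAS transcripts measured, 16 contain exon 6 and 3 join exons on both sides of it. FAS-219, which has no defined coding sequence, lacks exon 6 and does not have both of the exons beside it. Transcripts with exon 6 summed to 9.45, 3.25 and 4.21 CPM in the untreated and to 10.7, 12.98 and 20.3 CPM in the IR libraries. Those that skip exon 6 summed to 3.75, 2.32 and 4.42 CPM in untreated and 7.42, 6.07 and 8.64 CPM in IR libraries. FAS-219 was at 4.31, 6.53 and 7.43 CPM in untreated and 16.7, 17.7 and 8.98 CPM in IR libraries. All 3 classes were thus higher in each IR library than in each untreated library, while their shares of FAS overlapped between groups. The class with exon 6 includes FAS-220, which has no defined coding sequence. FAS-220 held 101 of the 172 estimated counts of this class in untreated replicate 1 and 395 of 916 in IR replicate 3. Transcripts without a defined coding sequence held 46% to 58% of FAS counts in untreated and 48% to 52% in IR libraries. The skipping transcripts made up 19.2% to 27.5% of FAS counts in untreated and 16.5% to 22.8% in IR libraries. FAS-204 was the only one of them with counts in untreated cells.

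Single FAS transcripts were estimated less steadily than the gene. FAS-220, without a defined coding sequence, had 101, 5.2 and 0 estimated counts in untreated and 16.1, 28.2 and 395 in IR libraries. Its counts came mainly from 1 library of each group. FAS-221, which encodes the full-length receptor, had 3.3, 3.7 and 6.8 estimated counts in untreated and 49.9, 62.8 and 119 in IR libraries. Its share of FAS counts was 1.04% to 2.08% in untreated and 6.95% to 9.30% in IR libraries, with no overlap. Its untreated counts were few, and how often such shares separate over all transcripts was not computed. By the transcript usage test of edgeR (diffSpliceDGE), none of 6 members with at least 2 tested transcripts passed the threshold, where 285 of 10666 genes (2.67%) did, and FAS had the lowest unadjusted P of the 6, at 0.495. FAS-221 alone had an unadjusted P of 0.0825 in this test. A missed threshold does not show that usage was the same. The transcript models used for the counts came from GENCODE release 37, and 16 of the 20 FAS transcripts have another length in release 44, from which the exons were taken.

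The exons of FAS overlap those of its neighbours in the annotation. ACTA2, smooth muscle actin, lies on the opposite strand, and its exons overlap 3 of the 20 measured FAS transcripts, which held between 0% and 2.13% of FAS counts. STAMBPL1, a deubiquitinase gene on the same strand, overlaps none of the 20 measured transcripts. A long non-coding RNA on the opposite strand, ENSG00000286116, overlaps 17 of the 20, FAS-221 included. It was not among the genes counted, so its level is unknown. ACTA2 was also higher after IR, from 3.29 ± 0.30 to 9.10 ± 1.59 CPM (SD, n = 3 each; log2 fold change 1.47, adjusted P = 5.96e-04 by edgeR), and its IR and untreated libraries did not overlap. The 2 ACTA2 transcripts that overlap exons of FAS held 17% to 23% of ACTA2 counts in untreated and 21% to 31% in IR libraries. A further fit left out every transcript that overlaps an exon of any other gene, not only those shared by FAS and ACTA2. From the transcripts left, FAS had a log2 fold change of 1.20 (adjusted P = 0.00517 by edgeR). ACTA2 had one of 0.23 with a standard error of 0.45 (adjusted P = 0.751 by edgeR), too imprecise to tell a rise from none. For FAS the transcripts left were FAS-219 and the unsteady FAS-220, with FAS-218 at 0 counts, none of which has a defined coding sequence. From transcripts annotated as protein coding, overlapping ones included, FAS had a log2 fold change of 1.30 (adjusted P = 0.00695 by edgeR). From such transcripts ACTA2 had one of 1.67 (adjusted P = 0.00452 by edgeR). STAMBPL1 was 14.3 ± 0.67 CPM in untreated and 14.3 ± 0.88 CPM in IR libraries (SD, n = 3 each). Whether the counting used the strand of the reads is not given in the sources used here, and without it reads of ACTA2 and FAS in shared exons cannot be told apart.

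A sequence resembling the binding site of p53 was sought in the 2000 bases after the canonical start of each protein-coding gene. The pattern was a pair of adjacent decamers, each of 3 purines, C, a pair of A or T, G and 3 pyrimidines, with at most 2 mismatches outside the C and G positions; it reads the same on both strands. FAS held one match in intron 1 at chr10:88991309-88991328, plus strand, 511 bases after the start, shown with the C and G positions in capitals because FAS rose most.
FAS intron 1 match: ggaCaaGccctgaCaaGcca

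Of the 10 genes, FAS and TNFRSF10B held such a match, and of 20019 windows of protein-coding genes 289 (1.44%) did. The match has 2 mismatches, and binding was not measured in these libraries. In promoters of RefSeq (GRCh38.p14, 250 bases before to 50 after a start), which the table gave for 5 of the 10 genes, an exact decamer was present in 1 of 3 promoters of FAS and in 1 of 3 of CASP8, and in 6.63% of all promoters.

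TNFRSF10B, the TRAIL receptor DR5, was higher after IR by a smaller factor than FAS. Untreated libraries held 59.4, 62.3 and 62.5 CPM and IR libraries 86.7, 85.4 and 97.3 CPM. Every IR library exceeded every untreated library, with IR replicate 3 the highest. The mean rose from 61.4 ± 1.73 to 89.8 ± 6.54 CPM (SD, n = 3 each). The log2 fold change was 0.55 with a standard error of 0.07 (95% confidence interval 0.39 to 0.71, adjusted P = 9.03e-04 by edgeR). TNFRSF10B lies on chromosome 8 from 23020133 to 23069031 on the minus strand, and exons of RHOBTB2 on the opposite strand overlap 2 of its 8 transcripts, which held 78.0% to 83.5% of its counts. From the other transcripts its log2 fold change was 0.41 (adjusted P = 0.0447 by edgeR). The only protein-coding one of these, TNFRSF10B-202, was unsteady, with 129.1, 119.6 and 22.8 estimated counts in untreated and 173.7, 132 and 400 in IR libraries. TNFRSF10B-207, not annotated as protein coding, had 92.5, 112.4 and 180.5 in untreated and 151.5, 116.7 and 294.3 in IR libraries. RHOBTB2 itself had a log2 fold change of 0.28 (adjusted P = 0.0459 by edgeR), and of 0.09 (adjusted P = 0.371) after removal of each library's dependence on GC content (called the GC trend below). It also missed the threshold when any library but IR replicate 1 was left out (0.16 to 0.31).

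The long form of DR5, TNFRSF10B-201, held 61.9% to 66.7% of TNFRSF10B counts in untreated and 57.0% to 71.0% in IR libraries. The shorter TNFRSF10B-202 held 1.78% to 11.9% and 8.41% to 9.69%. Both ranges overlapped between groups.

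The other TRAIL receptors, encoded beside TNFRSF10B, were low or near 0. TNFRSF10A (DR4), which also carries a death domain, had 0, 0 and 5 counts in untreated and 1, 1 and 5 counts in IR libraries. TNFRSF10D, a decoy with a truncated death domain, had 1, 0 and 0 counts in untreated and 0, 3 and 4 counts in IR libraries. Neither passed the filter on low counts, and no fold change is given. A library without counts allows up to 3 counts, which corresponds to 0.07 to 0.16 CPM depending on its depth, and the limit covers counting error only.

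TNFRSF10C, a decoy without a death domain that is anchored by a lipid, was measured at 2.03, 2.50 and 1.32 CPM in untreated and 2.13, 1.74 and 2.86 CPM in IR libraries. The groups overlapped, and the log2 fold change of 0.23 had a 95% confidence interval of -0.40 to 0.86 (adjusted P = 0.572 by edgeR). Without IR replicate 3 it was -0.02. All 3 of its transcripts share exons with ENSG00000284956, a protein-coding gene on the same strand that spans further along the locus, so that the division of reads between these genes is uncertain. ENSG00000284956 had 1.94 ± 0.36 CPM in untreated and 2.32 ± 0.03 CPM in IR libraries (SD, n = 3 each; adjusted P = 0.420 by edgeR).

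On the scale of TPM, which takes account of transcript length, TNFRSF10B supplied 92.3% to 95.9% of the RNA of the 4 TRAIL receptors in untreated libraries and 93.4% to 95.9% in IR libraries.

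TNFRSF1A, the receptor for TNF, was at 89.8, 91.6 and 94.7 CPM in untreated and 98.5, 88.5 and 106 CPM in IR libraries. The groups overlapped, and the log2 fold change was 0.09 (95% confidence interval -0.08 to 0.25, adjusted P = 0.415 by edgeR). It turned to -0.14 with an offset for effective transcript length and to -0.05 with the GC trend removed, neither past the threshold.

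TRADD, the adaptor of TNFRSF1A, on chromosome 16 from 67154185 to 67159909 on the minus strand, was the third gene to pass the threshold. It was at 8.18, 9.01 and 8.45 CPM in untreated and at 11.1, 10.3 and 16.4 CPM in IR libraries. Each IR library lay above each untreated library, but IR replicate 3 stood well above the other two. The mean rose from 8.55 ± 0.42 to 12.6 ± 3.31 CPM (SD, n = 3 each; log2 fold change 0.58, standard error 0.17, 95% confidence interval 0.20 to 0.96, adjusted P = 0.0289 by edgeR). Without IR replicate 3 the log2 fold change was 0.32 (adjusted P = 0.0888 by edgeR), and TRADD also missed the threshold without any one of untreated replicates 1, 2 and 3 (0.55, 0.62 and 0.57; adjusted P = 0.0845, 0.0621 and 0.0818). With the GC trend removed it was 0.17 (adjusted P = 0.343 by edgeR).

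FADD, which links FAS and the TRAIL receptors to caspase-8, was at 30.4, 32.1 and 34.4 CPM in untreated and 32.3, 36.5 and 40.3 CPM in IR libraries. The groups overlapped in IR replicate 1, and the log2 fold change of 0.18 did not pass the threshold (95% confidence interval -0.03 to 0.38, adjusted P = 0.177 by edgeR). The only transcript of FADD overlaps a long non-coding RNA on the opposite strand, which was not among the genes counted.

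CASP8, the initiator caspase, was at 50.4, 48.6 and 56.4 CPM in untreated and 59.0, 59.5 and 49.6 CPM in IR libraries. IR replicates 1 and 2 were above all untreated libraries, and IR replicate 3 lay within their range. Its log2 fold change was 0.11 (95% confidence interval -0.09 to 0.31, adjusted P = 0.388 by edgeR), and 0.24 with the GC trend removed, which passed the threshold (adjusted P = 0.0346 by edgeR) but not when a replicate block was added to that fit (adjusted P = 0.0631). Protein-coding transcripts held 69.5% to 75.2% of CASP8 counts in untreated and 69.2% to 75.5% in IR libraries.

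CFLAR, the inhibitor, had the smallest fold change of the 8 genes. It was at 53.3, 57.9 and 53.9 CPM in untreated and 58.0, 55.8 and 57.8 CPM in IR libraries, with overlapping groups. The log2 fold change was 0.06 (95% confidence interval -0.09 to 0.20, adjusted P = 0.550 by edgeR). CFLAR makes a long and a short form, of which both keep the death effector domains and the short one lacks the caspase-like part. Transcripts of the long form held 61.8% to 69.6% of its counts in untreated and 59.2% to 65.3% in IR libraries. Those of the short form held 7.47% to 9.44% and 11.0% to 12.5%, so that the short form's share was higher in each IR library than in each untreated library. How often such shares separate between groups over all genes was not computed. The short form rests on CFLAR-202 and CFLAR-211. CFLAR-211 was unsteady, with 0, 12.4 and 42.1 estimated counts in untreated and 50, 27.1 and 26.6 in IR libraries. The usage test gave CFLAR an unadjusted P of 0.964, and CFLAR-202 and CFLAR-211 alone unadjusted P values of 0.646 and 0.524.

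**Figure D2:**
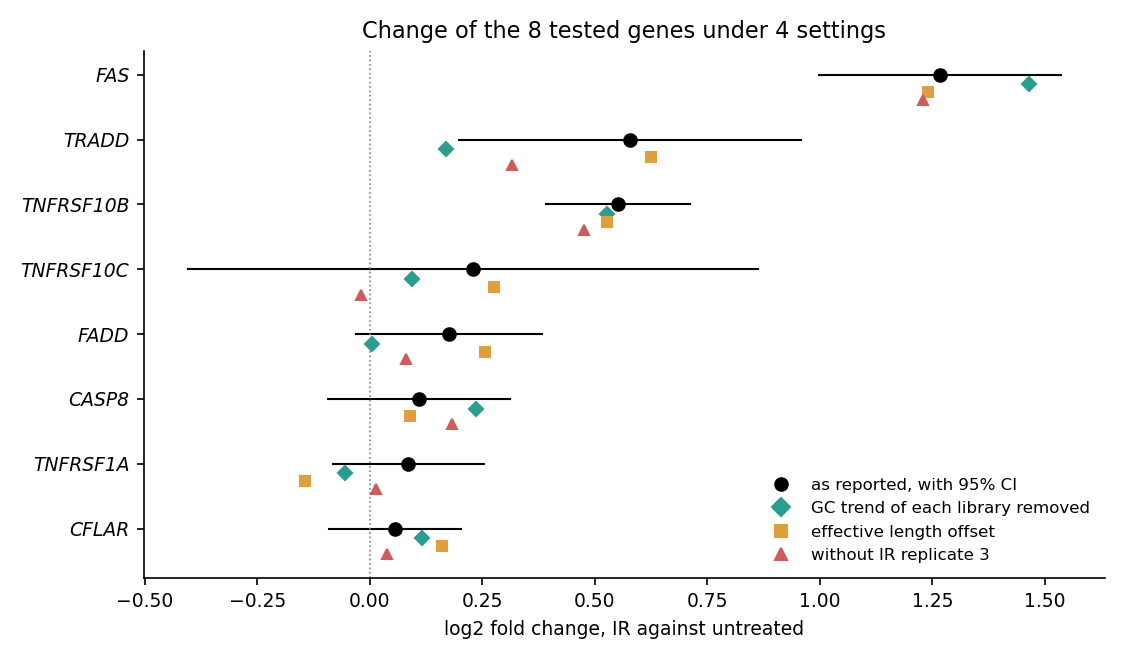
Log2 fold change of IR against untreated (horizontal axis) for the 8 tested genes. Black points and lines show the values reported with their 95% confidence intervals, and coloured marks show the value with the GC trend removed, with the effective length offset and without IR replicate 3. FAS lies between 1.23 and 1.46 and TNFRSF10B between 0.48 and 0.55 across the 4 settings, whereas TRADD ranges from 0.17 to 0.62.

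Levels between genes were compared in TPM, summed over all transcripts of a gene, also those that are not protein coding. In untreated cells TNFRSF1A was highest at 72.9 ± 13.1 TPM, followed by CASP8 at 38.5 ± 6.40, CFLAR at 28.3 ± 5.22, TNFRSF10B at 23.8 ± 0.98, FADD at 20.8 ± 1.56, FAS at 20.2 ± 3.39, TRADD at 6.93 ± 0.65 and TNFRSF10C at 1.53 ± 0.50 TPM (SD, n = 3 each). The libraries of CFLAR and TNFRSF10B overlapped, as did those of FADD and FAS. The other neighbours in this order did not overlap, though CASP8 and CFLAR, and TNFRSF10B and FADD, were separated by less than 1 TPM. After IR, FAS moved from position 6 to position 2, at 46.2 ± 2.08 TPM (SD, n = 3), between TNFRSF1A at 63.9 ± 8.72 and CASP8 at 39.5 ± 4.57 TPM. FAS-219, without a defined coding sequence, gave 20.4, 20.6 and 11.0 TPM of the FAS level in the IR libraries. The order was not computed from protein-coding transcripts alone, so it is not one of receptor-coding RNA. In IR libraries TNFRSF10B, at 33.4 ± 6.40 TPM, overlapped with both CASP8 and CFLAR, which was at 30.6 ± 2.83 TPM. CFLAR overlapped with FADD, at 24.1 ± 5.05 TPM. The mean of TNFRSF1A was higher after IR in CPM and lower in TPM, within the spread of the libraries on both scales.

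The fold changes of all genes moved with GC content, and the 3 higher genes lie at different GC contents. In the lowest eighth of GC content 3.63% of genes were higher, with a median log2 fold change of -0.19, and in the highest eighth 45.1% were, with a median of 0.34. FAS, with 38.5% GC, is in the lowest eighth and stood at percentile 99.8 of its log2 fold changes. TNFRSF10B, with 51.3% GC, is in the fifth eighth, at percentile 95.1. TRADD, with 64.6% GC, is in the highest, at percentile 77.8. With the GC trend of each library removed, FAS was at 1.46 and TNFRSF10B at 0.53 on the log2 scale (adjusted P = 8.37e-05 and 5.67e-04 by edgeR). The 3 genes past the threshold were then FAS, TNFRSF10B and CASP8.

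The wider pathway was described with a list of 73 further genes, of which 59 were tested. Of these, 15 were higher and 4 lower after IR, beside 15.5% and 14.5% of all tested genes, which are also the background for the counts by role below. The median log2 fold change was 0.06, against 0.01 for all tested genes. The list mixes genes that promote and genes that restrain death signalling, and higher genes occurred in both groups. With the effective length offset 6 of the list were higher. With the GC trend removed 11 were higher and 6 lower.

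Of the 8 ligands, 7 were too low to be tested. FASLG had between 0 and 3 counts in a library, TNFSF10, which encodes TRAIL, and TNF between 0 and 1. LTA, another ligand of TNFRSF1A, had between 2 and 9 counts. TNFSF15, the ligand of TNFRSF25, was tested, at 3.27 ± 0.66 CPM in untreated and 2.51 ± 0.14 CPM in IR libraries (SD, n = 3 each; log2 fold change -0.39, adjusted P = 0.185 by edgeR).

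Of 8 further receptors tested, 4 were higher and none lower. TNFRSF14 (HVEM), a receptor for the ligand LIGHT, was at 3.29, 2.94 and 3.66 CPM in untreated and 11.2, 11.3 and 15.1 CPM in IR libraries, and its log2 fold change was 1.94 with a standard error of 0.17 (adjusted P = 1.69e-04 by edgeR). Its libraries did not overlap, and its change was larger than that of FAS. TNFRSF25 (DR3), a death domain receptor for TNFSF15, rose by 0.97 on the log2 scale (adjusted P = 0.00238 by edgeR), from 2.88 ± 0.31 to 5.64 ± 0.19 CPM (SD, n = 3 each). It missed the threshold from transcripts without exon overlap (adjusted P = 0.0800 by edgeR). With the GC trend removed TNFRSF25 was at 0.65 (adjusted P = 0.0164 by edgeR). Its protein-coding transcripts alone did not pass the filter on low counts and have no value. EDA2R, a receptor for ectodysplasin A2 and a known target of p53, rose by 0.70 (adjusted P = 0.00297 by edgeR).

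Of 12 adaptors, kinases and initiator proteases tested, 3 were higher and 1 lower. CASP10, the initiator caspase most like caspase-8, had 8, 94 and 26 counts in untreated and 107, 139 and 357 counts in IR libraries. Untreated replicate 2 was close to the IR libraries in CPM, at 4.19 against 5.18 to 7.90, and the log2 fold change of 1.77 had a standard error of 0.51 (adjusted P = 0.0257 by edgeR). It did not pass the threshold without untreated replicate 3 or without IR replicate 2 (adjusted P = 0.0983 and 0.0607 by edgeR), and without untreated replicate 2 its log2 fold change was 2.98. It also missed it with the DESeq2 Wald test, the effective length offset, protein-coding transcripts only and transcripts without exon overlap (adjusted P between 0.0823 and 0.0947). PIDD1, a death domain protein that binds caspase-2 through CRADD, rose from 14.8 ± 0.91 to 28.8 ± 4.87 CPM (SD, n = 3 each; log2 fold change 0.97, adjusted P = 7.38e-04 by edgeR), and stood at 0.52 with the GC trend removed (adjusted P = 9.57e-04). MLKL, which carries out necroptosis, had a log2 fold change of 0.40 (adjusted P = 0.0378 by edgeR), which passed no longer without untreated replicate 1 (adjusted P = 0.130), without untreated replicate 3 (0.0691), without IR replicate 1 (0.118) or without IR replicate 2 (0.0767), nor with the replicate block, the length offset, protein-coding transcripts or transcripts without exon overlap (0.0626 to 0.0897). RIPK3, the kinase that activates MLKL, had no counts in any library.

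Of 15 inhibitors and ubiquitin regulators of the receptor complexes, 3 were higher and 1 lower. OTULIN, which removes linear ubiquitin chains, was the lower one, at 68.1, 66.6 and 69.5 CPM in untreated and 49.9, 48.2 and 52.3 CPM in IR libraries, and fell by 0.44 on the log2 scale (adjusted P = 0.00146 by edgeR). RBCK1, a subunit of the ligase that builds these chains, rose by 0.45 (adjusted P = 0.00379 by edgeR) but was at 0.17 with the GC trend removed (adjusted P = 0.0939). TNFAIP3 (A20), a feedback inhibitor of NF-κB, had a log2 fold change of 0.73 (adjusted P = 0.0471 by edgeR) and missed the threshold when any library but untreated replicate 2 was left out (0.53 to 0.77), and with the length offset, protein-coding transcripts or transcripts without exon overlap (0.64 to 0.79).

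Downstream of caspase-8, 2 of 11 tested effectors were higher and 2 lower. BID, which caspase-8 cleaves to reach the mitochondria, rose from 31.5 ± 0.96 to 41.8 ± 3.09 CPM (SD, n = 3 each; log2 fold change 0.41, adjusted P = 0.00431 by edgeR), and missed the threshold with the effective length offset (0.31, adjusted P = 0.159). ROCK1, a kinase that caspase-3 cleaves, fell by 0.49 on the log2 scale (adjusted P = 0.00917 by edgeR), from 112 ± 2.48 to 80.4 ± 13.8 CPM (SD, n = 3 each), and was at -0.30 with the GC trend removed (adjusted P = 0.0261). The nuclear lamina gene LMNA, another caspase substrate, was at 0.25 (adjusted P = 0.0464 by edgeR) and at -0.03 with the GC trend removed, at 0.14 without IR replicate 3, and it also missed the threshold without untreated replicate 1, 2 or 3 or IR replicate 2 (0.23 to 0.29). Of 12 NF-κB factors and feedback targets tested, 3 were higher and none lower. These were the inhibitors NFKBIE (0.43) and NFKBIB (0.38) and the kinase regulator IKBKG (0.30), and none of them passed the threshold with the GC trend removed (adjusted P = 0.0884, 0.388 and 0.965 by edgeR). NFKBIE also missed it without any library but IR replicate 1 (0.29 to 0.47), and IKBKG without untreated replicate 1 or 3 or IR replicate 2 (0.27 to 0.28). With the length offset NFKBIE and IKBKG missed it (adjusted P = 0.155 and 0.148), and with protein-coding transcripts only NFKBIE and NFKBIB did (0.0811 and 0.117).

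The genes whose log2 CPM followed that of FAS most closely over the 6 libraries, of 11676 with a mean of at least 100 counts, were GTF3A, TRAPPC3, BPNT1, ADAMTSL5 and NPEPL1, with Pearson correlations of 0.994 to 0.999. This is a description of 6 points in 2 groups. GTF3A, a transcription factor of the 5S ribosomal RNA genes, was at 75.2, 69.4 and 74.6 CPM in untreated and 90.3, 92.1 and 93.2 CPM in IR libraries, a log2 fold change of 0.33 against 1.27 for FAS.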

How the data were processed

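RNA of 3 untreated and 3 IR libraries was measured by bulk RNA-seq. Adaptor removal by fastp and pseudoalignment by kallisto to GENCODE release 37 (GRCh38) were done by the authors; per the file headers each library gives a transcript's estimated count, not normalized, its TPM and its length and effective length. The library kit is one for mRNA in the labels and one for total RNA in the methods. The deposited TPM values, which the authors scaled for effective length and library total, were summed per gene for comparing levels.

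Transcripts were matched by identifier to release 44 (158711 matched, 2460 left out; 98.2% to 98.5% of counts kept). Estimated counts were summed per gene, rounded and filtered with filterByExpr. The quasi-likelihood test of edgeR 4.0.16 (glmQLFit, glmQLFTest, TMM scaling; R 4.3.3, limma 3.58.1) was used, and P values were adjusted over all genes (Benjamini–Hochberg); DESeq2 1.42.0 served as an alternative, and transcript usage was tested by diffSpliceDGE. The scripts were tested on simulated data, where the usage test, at the spread of these transcripts, recovered few of the changed genes and called more genes without a change. Alternatives changed the filter, size factors, test, GC trend (lowess span 0.3), effective length offset, transcripts counted, replicate block and libraries. IR replicate 3 is the deepest library, and its deposited file carries a mark in its name that the others lack and no source explains.

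The members and gene lists were chosen with earlier results of these data known. Named genes were the members, measured genes sharing exons with them, the ligands FASLG, TNFSF10 and TNF, up to 3 genes of largest change past the threshold in each role, and the 5 genes most correlated with FAS.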

Additional observations from a re-analysis of the deposited data

How the results depend on the processing

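FAS (1.12 to 1.46 on the log2 scale) and TNFRSF10B (0.41 to 0.58) stayed past the threshold in all 17 alternatives, and no member was lower in any. The cause of the changes below was not tested. TRADD missed the threshold with the GC trend removed (0.17), the length offset (0.62), protein-coding transcripts only (0.58), transcripts without exon overlap (0.59) and without a library (untreated replicate 1, 2 or 3, or IR replicate 3; 0.32 to 0.70 over the 6 fits). CASP8 passed with the GC trend removed (0.24). TNFRSF1A turned with the GC trend removed (-0.054) and the length offset (-0.14), LMNA with the GC trend removed (-0.029), and TNFRSF10C without IR replicate 3 (-0.019 to 0.45 over the 6 fits). STAMBPL1, at -0.0026, turned to 0.0010 without the filter, 0.072 with the GC trend removed, 0.080 with the length offset, 0.059 with protein-coding transcripts, 0.00027 without overlapping transcripts, and -0.061 to 0.034 without a library. FADD and TNFRSF10C have no transcript free of overlap and no value there.

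Of the wider list, 15 genes were higher and 4 lower. With the length offset 6 were higher, with protein-coding transcripts 8 and without overlapping transcripts 8. Without a library 9 to 14 were higher (9 without untreated replicate 3) and 2 to 6 lower (2 without untreated replicate 2). With the GC trend removed 11 of the list were higher and 6 lower, beside 1670 and 1802 of all genes. With the replicate block 12 of the list were higher and 4 lower. Over all genes, 2227 were higher and 2080 lower, against 837 and 875 with the length offset, 1277 and 1440 with protein-coding transcripts, 1110 and 1070 without overlapping transcripts, and 1295 to 2114 and 1244 to 2284 without a library. Usage calls among members were 0 to 1 without a library (CASP8, without IR replicate 2), and over all genes 285, 149 with the replicate block and 228 to 443 without a library.

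Replicate numbers are shared between groups. Same-numbered libraries did not deviate together (correlations of -0.05 to 0.01), and libraries of different numbers gave -0.05 to 0.06. These correlations show no strong shared shift but cannot tell whether the samples were paired. With the replicate block FAS was at 1.27, TNFRSF10B at 0.55 and TRADD at 0.54, all past the threshold. Over all genes 1727 were then higher and 1624 lower. A fit chosen after seeing the data, with the GC trend removed and the replicate block, gave 8 higher genes of the wider list, TRADD 0.15 and CASP8 0.24 (both missed the threshold, which left 2 members higher), TNFRSF1A -0.058, LMNA -0.028 and STAMBPL1 0.072. In CPM per kilobase of effective length the order of the members' levels was the same as in TPM in both groups. Depth limits TNFRSF10A and TNFRSF10D, at 0 to 5 counts.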
